A study of Rattus norvegicus with 6 samples.

Results

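Hox genes encode homeodomain transcription factors, and their transcripts were followed here in cultured cortical neurons of the rat. The members were taken from the annotation of the array as the genes whose symbol is Hox, a cluster letter from a to d and a number, named alone by at least 1 probe set. They are 22 of the 14506 genes measured, and 22 of the 39 Hox genes that a RefSeq gene table of the GRCr8 assembly lists in the 4 clusters. The other 17 were not analysed here. Each of the 22 had exactly 1 such probe set, a group of probes summarised as 1 intensity in arbitrary units.

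The cells were cortical neurons of Sprague-Dawley embryos of day 18, kept in NB-N2 medium for 3 days. RNA of untreated neurons was hybridised to 3 arrays, and RNA of neurons exposed to 10 nM C1q for 3 h to 3 more. C1q is the recognition protein of the classical complement pathway. The labels number the arrays 1 to 3 in each group without saying whether they came from separate cultures, and every p-value therefore rests on array-to-array spread that may be only technical.

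Hox genes lie in clusters in the order in which they are used along the body axis. Genes of low number are switched on early and far forward, up to the hindbrain, and genes of high number later and toward the tail and limbs. The forebrain forms in front of the domain of all of them, and Polycomb proteins keep the clusters silent there. Their protein partners, the Pbx, Meis and Pknox homeodomain factors, are by contrast widely used in the forebrain.

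Most Hox genes read low in these neurons. Of the 22 genes, 17 lay below the median probe set of the array and 5 above it. Ranked among all 29215 probe sets by mean log2(intensity + 16) over the 6 arrays, the median Hox gene lay at percentile 37.7, where the median of all measured genes lay at 58.2. The Hox genes ran from percentile 14.5 for Hoxc9 to 76.6 for Hoxb3. Probe sets bind with unequal strength, so a percentile describes the signal of a probe set and orders transcripts only roughly. Detection calls were not used here, and the part of each signal that is background is unknown. In a mixed culture, a few cells with much of a transcript and many with little cannot be told apart.

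The promoters of 3 Hoxd genes are shown because they belong to the brightest pair and to the dimmest gene measured in that cluster. Each is the RefSeq promoter of the GRCr8 assembly, 250 bases before to 50 after the transcript start the table uses, on the plus strand, written 5′ to 3′ with CG dinucleotides in capitals. Hoxd9 lies at chr3:80007756-80008055, Hoxd13 at chr3:79977827-79978126 and Hoxd3 at chr3:80045876-80046175.
Hoxd9: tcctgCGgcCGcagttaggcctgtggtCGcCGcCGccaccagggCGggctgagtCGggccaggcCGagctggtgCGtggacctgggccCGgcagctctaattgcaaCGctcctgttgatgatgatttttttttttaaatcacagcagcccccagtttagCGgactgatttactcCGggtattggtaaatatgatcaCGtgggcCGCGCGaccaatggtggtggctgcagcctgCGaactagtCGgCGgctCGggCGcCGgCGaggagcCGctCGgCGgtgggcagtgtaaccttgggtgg
Hoxd13: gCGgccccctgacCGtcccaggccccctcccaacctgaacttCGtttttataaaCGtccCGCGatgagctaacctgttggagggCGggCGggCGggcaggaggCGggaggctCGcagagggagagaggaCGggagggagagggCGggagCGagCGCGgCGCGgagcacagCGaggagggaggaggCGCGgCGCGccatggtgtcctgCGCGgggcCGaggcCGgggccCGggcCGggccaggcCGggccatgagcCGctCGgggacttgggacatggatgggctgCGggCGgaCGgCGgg
Hoxd3: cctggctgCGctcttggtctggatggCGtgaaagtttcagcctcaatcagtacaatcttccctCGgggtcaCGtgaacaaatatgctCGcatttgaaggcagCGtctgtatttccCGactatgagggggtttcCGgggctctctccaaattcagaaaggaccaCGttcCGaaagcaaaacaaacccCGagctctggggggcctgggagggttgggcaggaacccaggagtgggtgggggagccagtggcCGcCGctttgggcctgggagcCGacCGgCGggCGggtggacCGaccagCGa
The stretches hold 27, 36 and 19 CG dinucleotides, where the median of the 33469 promoters in the table is 7. Unmethylated DNA dense in CG is the usual ground on which Polycomb complexes settle.

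A promoter of this kind was found for 11 of the 22 Hox genes. The CG counts ran from 6 for Hoxc4 to 36 for Hoxd13, with a median of 24, and the median GC content was 62.7% against 51.7% over all promoters. Genes with CG-dense promoters read higher on these arrays. The 3651 measured genes with at least 24 CG had a median at percentile 76.1, and the 8832 with at least 6 CG at 69.0. The 3136 genes with fewer lay at 22.1. The 11 Hox genes all belong to the group with at least 6 CG. Their median at percentile 42.3 lay below the 69.0 of that group. Across the 11 genes the CG count and the signal had a Spearman correlation of 0.49, a description over genes that lie in shared clusters. The motif TATAAA, sought on both strands, was in 1 of the 11 promoters, that of Hoxd13, against 14.2% of all promoters. The motif TGATNNAT, a short form of the Hox and Pbx site, was in 2 of 11, those of Hoxa2 and Hoxa7, against 9.10% of all, also on both strands.

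Hoxb3, a gene of rhombomere identity in the hindbrain, was the brightest. Untreated arrays 1 to 3 gave 656, 735 and 643, and C1q arrays 1 to 3 gave 679.7, 496 and 765, the order used for each gene that follows. All 6 values stood above every value of every other Hox gene, and the lowest, on C1q array 2, lay at percentile 71.0 of its array. In the RefSeq table the gene overlaps the uncharacterised gene LOC102550580, and whether the probe set also reads that RNA was not tested. Its neighbour Hoxb4, known from the hindbrain and from blood stem cells, read 158, 225 and 178 untreated and 184, 166 and 191 after C1q, close to the median probe set. Hoxb2, on the other side of Hoxb3 in the cluster, had a mean of only 48.6 ± 5.99 (SD, n = 6 arrays) and lay at percentile 22.8. The signal of Hoxb3 was thus not shared by both of its neighbours, as these probe sets read them. The accession of the Hoxb2 probe set was not found in the RefSeq table, though its gene identifier was.

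Hoxd9 and Hoxd13, genes of the posterior trunk and limbs, came next. Hoxd9 read 272, 380.0 and 364 untreated and 315, 342 and 374 after C1q, at percentile 64.5. Hoxd13, which patterns digits and the genital tubercle, read 322, 308 and 307 untreated and 305, 226 and 320.0 after C1q, at 62.2. Hoxd10, which lies between them and specifies lumbar motor neurons, read 69.0, 74.6 and 74.4 untreated and 68.6, 57.4 and 59.8 after C1q. No array of Hoxd10 reached the lowest array of Hoxd9 or Hoxd13, so nearby posterior genes of 1 cluster gave unlike signals.

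Hoxb7, a trunk gene, read 253, 260.3 and 257 untreated and 265, 216 and 248 after C1q. Apart from C1q array 2, its arrays lay within a narrow band, at percentile 59.3 on average. Hoxd1, the only gene of paralog group 1 measured, read 114, 160.0 and 147 untreated and 158, 131 and 159 after C1q. Paralogs are the genes of equal number in different clusters, which arose by duplication of an ancestral cluster. Hoxa5, which acts in the lung and in brainstem circuits of breathing, read 93.9, 126 and 125 untreated and 123, 119.6 and 126 after C1q. Its lowest value was on untreated array 1, and the other 5 arrays lay close together. Hoxa4, a cervical gene, read 89.3, 158 and 128 untreated and 137, 87.7 and 107 after C1q. It had the widest spread of all members, an SD of 0.30 log2 over 6 arrays, and both groups held low and high arrays.

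The dimmest members were Hoxc9, Hoxd3 and Hoxc5. Hoxc9, which separates thoracic from limb motor columns in the spinal cord, read 32.5, 39.4 and 28.8 untreated and 46.3, 24.3 and 29.9 after C1q. Hoxd3, a gene of the cervical vertebrae, read 49.0, 43.7 and 40.3 untreated and 37.6, 40.8 and 38.6 after C1q. Hoxc5 read 45.0, 42.9 and 57.3 untreated and 44.9, 48.1 and 39.0 after C1q. Each of these 3 lay below the 25th percentile of all probe sets, an intensity of 52.4, as did Hoxb2 and Hoxb8. The remaining members, Hoxc4, Hoxd4, Hoxc12, Hoxa7, Hoxa2, Hoxa11, Hoxb13 and Hoxb9, had means from 73.8 to 106.

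**Figure D1:**
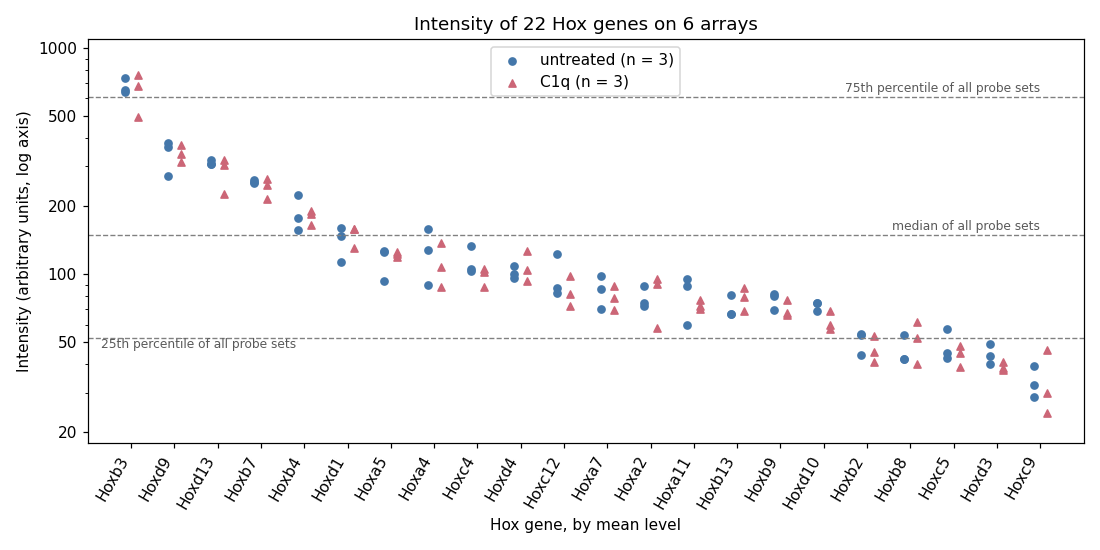
Intensity (arbitrary units, log axis) of each of the 22 Hox genes, ordered by mean level, with 1 point per array, circles for 3 untreated and triangles for 3 C1q arrays. Dashed lines mark the 25th, 50th and 75th percentiles of all probe sets. Hoxb3 stands apart at the top and 17 genes lie under the middle line.

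In the order of mean log2 level, a member's 6 arrays overlapped those of the next lower member in 19 of 21 adjacent pairs. The exceptions were the steps from Hoxb3 down to Hoxd9 and from Hoxd10, at 67.3 ± 7.26, down to Hoxb2 at 48.6 ± 5.99 (SD, n = 6 arrays each). Overlap over the arrays does not by itself mean an unsettled order, as all genes share the arrays. On each of the 6 arrays Hoxd13 read above Hoxb7, Hoxb7 above Hoxb4, Hoxb4 above Hoxd1 and Hoxd1 above Hoxa5. Hoxc12 likewise read above Hoxa7 on each array. The other overlapping neighbours did not keep their order on every array.

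No cluster was high as a whole, as far as its members show. The members were 5 of 11 Hoxa, 7 of 10 Hoxb, 4 of 9 Hoxc and 6 of 9 Hoxd genes of the RefSeq table. The medians lay at percentile 36.5 for the 5 Hoxa genes, 34.3 for the 7 Hoxb genes, 30.2 for the 4 Hoxc genes and 45.7 for the 6 Hoxd genes. The 5 measured Hoxa genes lay close together, between percentiles 34.8 and 45.1. The Hoxb genes ran from 22.8 to 76.6 and the Hoxd genes from 19.1 to 64.5, and all 5 genes above the median probe set belonged to these clusters, 3 to Hoxb and 2 to Hoxd. All 4 measured Hoxc genes lay at or below percentile 42.6.

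Position along the cluster did not order the signals. The 9 genes of paralog groups 1 to 4 had their median at percentile 42.6, the 5 of groups 5 to 8 at 36.5 and the 8 of groups 9 to 13 at 34.6. Across all 22 genes the Spearman correlation of paralog group with level was -0.09, and it ran from -0.40 within Hoxc (4 genes) to 0.31 within Hoxd (6 genes). These are descriptions over genes of different probe sets. Paralogs differed widely in places. In group 3 Hoxb3 read 662 and Hoxd3 41.7 on average, and in group 9 Hoxd9 read 341, Hoxb9 73.8 and Hoxc9 33.5. The group 4 genes Hoxa4, Hoxb4, Hoxc4 and Hoxd4 lay closer together, between percentiles 42.3 and 53.7.

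**Figure D2:**
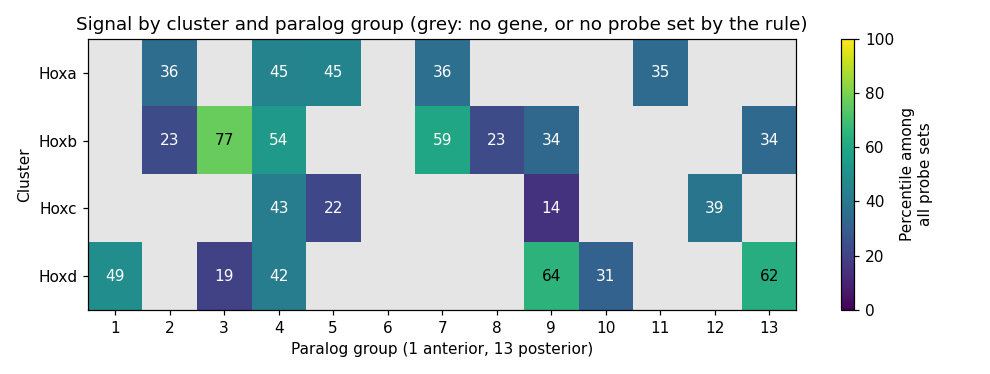
Percentile of each Hox gene among all probe sets, by cluster (rows) and paralog group (columns, 1 anterior to 13 posterior), with the value printed in each cell and grey where no gene was measured. The values show no gradient along the rows, and the high cells of Hoxb3 and Hoxd9 each have a low cell beside them, Hoxb2 and Hoxd10.

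The labelled cell type was checked against its defining markers. All 10 pan-neuronal genes lay above the median probe set, with a median at percentile 98.3. All 11 measured transcription factors of the cortex and telencephalon did as well, with a median at 90.7. The highest of these were Neurod6, a factor of cortical excitatory neurons, at 5974, Fezf2, of deep-layer neurons, at 2494, and Neurod2 at 2107. Markers of other cells were lower, with medians at percentile 30.1 for 6 microglial, 29.1 for 6 endothelial, 41.1 for 6 mural and meningeal, 47.2 for 5 astrocyte and 50.3 for 4 oligodendrocyte lineage genes. The median of 4 blood markers lay at 65.7, with the globin genes Hbb and Hba-a3 high and Alas2 and Ptprc at or below percentile 48.6. The part of these cells in the Hox signals was not tested.

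The Hox genes were set beside genes typical of other brain regions and other organs. The 12 measured transcription factors of midbrain, hindbrain and spinal cord had a median at percentile 37.2, against 37.7 for Hox, and 2 of the 12 lay above the median probe set. These were Isl1, a factor of motor and striatal neurons, at 452, and Lmx1b, of serotonergic and dopaminergic neurons, at 358. The 35 measured genes typical of liver, muscle, pancreas, testis and other organs had a median at percentile 31.3, and 6 of 35 lay above the median probe set. The highest was the sperm protamine gene Prm1 at 1240, followed by the insulin gene Ins2 at 395 and the muscle actin gene Acta1 at 282. No Hox gene exceeded Prm1, but Hoxb3 at 662 exceeded every other gene of the list. Of the 22 Hox genes, 5 lay below the median of the list and 10 above its 75th percentile. The 1103 olfactory receptor genes were dimmer, with a median at percentile 12.9. All 22 Hox genes lay above that median, and 10 above the 95th percentile of that list. A signal of 662 for Hoxb3 exceeded all 1103 olfactory receptor genes, the highest of which read 467, while the next members, Hoxd9 and Hoxd13, did not.

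The lists of Hox cofactors and regulators had higher medians than the Hox genes, with members of both in the Hox range. All 7 measured cofactors lay above the median probe set, with a median at percentile 76.9. Meis2 read 3560, Pbx3 1274, Pbx2 745, Meis3 668, Meis1 640.1, Pknox1 371 and Pbx4 156. Hoxb3 at 662 exceeded Meis1, Pknox1 and Pbx4. Of 19 measured chromatin and retinoid regulators of Hox genes, 13 lay above the median probe set and the list had its median at percentile 70.5. The Polycomb genes Ezh2, the histone H3 lysine methyltransferase, Bmi1 and Rnf2 read 2054, 1906 and 1876, and the insulator protein gene Ctcf read 3127. The Polycomb gene Cbx7 read only 136. Cdx2 and Cdx4, which switch on trunk Hox genes in the embryo, read 55.5 and 44.4. Aldh1a2, which makes retinoic acid, read 44.8, within the range of the dimmest Hox genes.

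The genes on either side of the clusters were mostly bright. Of the 3 nearest protein-coding genes on each side of each cluster in the RefSeq table, 24 in all, 19 were measured and 16 lay above the median probe set, with a median at percentile 81.1. Mtx2, which flanks Hoxd, read 527, Lnpk on its other side 1049, Cbx5, which flanks Hoxc, 2006, and Hibadh, which flanks Hoxa, 759. Of the 3 below the median, Evx1 and Evx2, homeobox genes at the ends of the Hoxa and Hoxd clusters, read 72.5 and 107, and Nfe2l2 read 83.3. The contrast between 5 of 22 Hox genes and 16 of 19 flanking genes above the median probe set is a count, without a test.

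**Figure D3:**
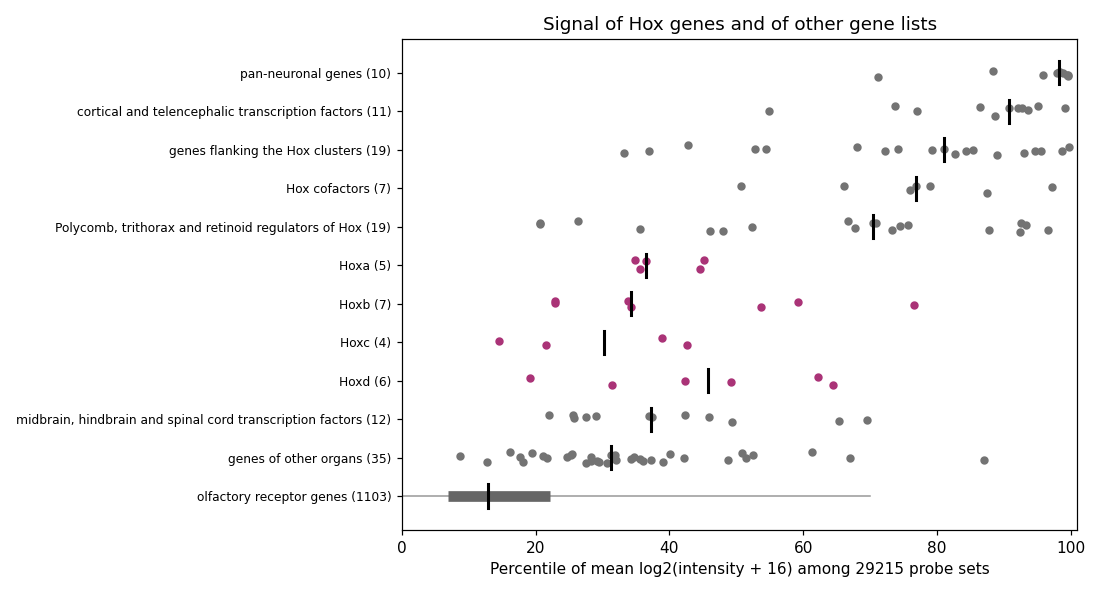
Percentile of mean log2(intensity + 16) among 29215 probe sets for the genes of each list, with the number of genes in brackets, 1 point per gene and a black bar at the median. For 1103 olfactory receptor genes the thick bar spans the quartiles and the thin line the range. The medians of the 4 Hox clusters lie left of those of the cofactors, the flanking genes and the cortical factors. They lie nearer the median of the genes of other organs, and single genes of the lists overlap.

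No Hox gene passed the test of C1q against untreated neurons. Over the whole table limma called 0 probe sets higher (0%) and 1 lower (0.00342% of 29215) at an adjusted p under 0.05, and 0 of 22 Hox genes in either direction. At an unadjusted p under 0.05 there were 0 Hox genes, beside 2.86% of all probe sets. Without an intensity trend that count was 1 (Hoxd10), beside 1045 of the 29215 probe sets. With array weights it was 1 (Hoxc5) beside 4256, and without untreated array 1 it was 1 (Hoxa11) beside 1161. Without untreated array 2 and C1q array 2, a pair chosen after the data were seen, it was 2 beside 2326. In the main limma fit the smallest unadjusted p of a Hox gene was 0.115, with an adjusted p of 0.999979, that of Hoxd10. For all 22 genes, and 94.9% of all probe sets, the 95% interval stayed inside 1.5-fold either way, on the scale of intensity + 16. Since this scale and any background pull the fold change of a dim gene toward 1, the intervals do not bound a change of the mRNA itself.

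Hoxd10 had the log2 fold change of largest size, with a mean of 72.7 ± 3.21 in untreated and 61.9 ± 5.92 in treated neurons (SD, n = 3 each). It was -0.19 with a standard error of 0.11, and the 95% interval ran from 0.742- to 1.04-fold. Hoxd10 was the only Hox gene whose groups did not overlap, with the highest C1q array at 68.6 and the lowest untreated array at 69.0. Such separation toward lower values held for 5.18% of all probe sets, and 1 in 22 is close to that share. No Hox gene was separated toward higher values, against 1.88% of all probe sets, or 7.06% in either direction.

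Hoxc4, which overlaps Hoxc6 in the RefSeq table, read 103, 133 and 106 untreated and 103, 87.7 and 106 after C1q. Its fold change was 0.887 with a 95% interval of 0.738 to 1.06, and the groups overlapped, with untreated array 2 above and C1q array 2 below the other 4. The log2 fold change of -0.17 was -0.07 without untreated array 2 and -0.10 without C1q array 2. For Hoxd13 the means were 312 ± 8.13 and 284 ± 50.4 (SD, n = 3 each), a fold change of 0.905 (0.762 to 1.07). C1q array 2 stood below the other 5 arrays, and without it the log2 fold change was 0.0018.

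Among genes with a higher mean after C1q, the smallest p-values belonged to Hoxb13, Hoxa5 and Hoxb8. Hoxb13, a gene of the tail end and prostate, read 66.6, 66.8 and 81.1 untreated and 79.7, 68.9 and 86.9 after C1q. Its fold change was 1.08 (95% interval 0.898 to 1.30), and the groups overlapped. Its log2 fold change of 0.11 ran from 0.05 without C1q array 3 to 0.19 without untreated array 3. Hoxb8, which acts in the spinal dorsal horn and in blood lineages, read 42.3, 53.7 and 42.3 untreated and 52.5, 40.1 and 61.7 after C1q, a fold change of 1.08 (0.865 to 1.35). Its log2 fold change of 0.11 was 0.0023 without C1q array 3 and 0.24 without C1q array 2. Hoxa5 had means of 115 ± 18.3 and 123 ± 3.18 (SD, n = 3 each), a fold change of 1.07 (0.893 to 1.27). Without untreated array 1 the direction turned, with a log2 fold change of -0.03 in place of 0.09. In each of these genes the difference was smaller than the wider spread of the groups.

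**Figure D4:**
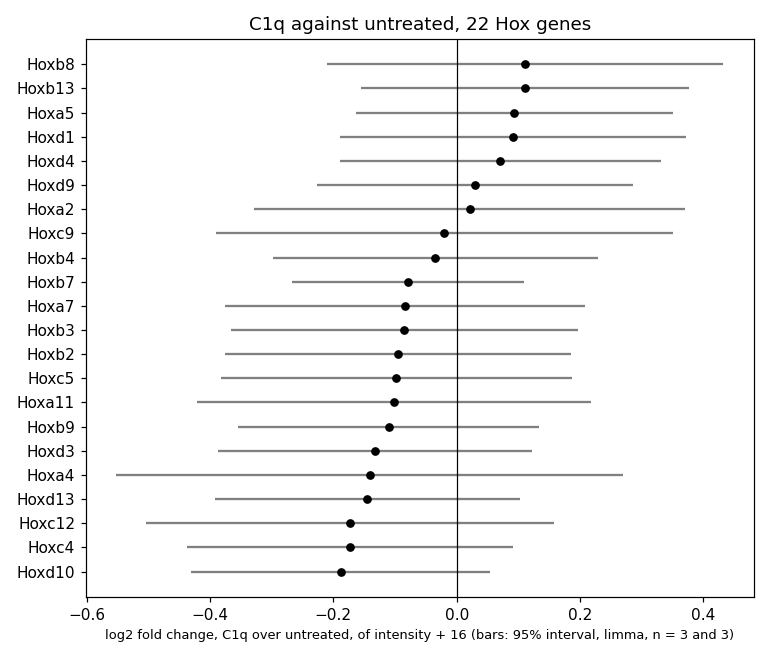
Log2 fold change of intensity + 16, C1q over untreated, for 22 Hox genes in order of size, with 95% intervals from limma (3 arrays in each group). All intervals include 0, and Hoxd10 and Hoxb8 mark the ends at -0.19 and 0.11.

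Means were lower after C1q for 15 of the 22 Hox genes and higher for 7, where 62% of all probe sets had a lower mean. The median log2 fold change was -0.08 over the Hox genes and -0.02 over all probe sets. With quantile normalization 14 Hox genes had a lower mean, beside 50.1% of all probe sets, and with median centring 14, beside 47.4%. The Hox medians were then -0.0587 and -0.0575, beside -0.000181 and 0.00477 over all probe sets. The balance moved with the arrays used. Leaving out untreated array 1, 2 or 3 gave 3, 12 or 6 higher and 19, 10 or 16 lower means. Leaving out C1q array 1, 2 or 3 gave 5, 11 or 6 higher and 17, 11 or 16 lower. Over all probe sets the share with a lower mean ran from 56% without untreated array 1 to 63% without untreated array 3. The Hox medians ran from -0.11 without untreated array 1 to 0.0077 without untreated array 2.

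Many Hox genes leaned the same way on 3 of the arrays. Below their own 6-array mean lay 17 of the 22 on untreated array 1, 18 on C1q array 2 and 3 on untreated array 2, and 8 or 9 on each of the other 3. On untreated array 2, 11 of the 22 had their highest value, and on C1q array 2, 11 had their lowest. Among the 18141 probe sets between percentiles 14.5 and 76.6, where the Hox genes lie, these shares were 29.4% and 17.7%. The median deviation of a Hox gene from its own 6-array mean was 0.13 log2 on untreated array 2 and -0.15 on C1q array 2, and between -0.06 and 0.06 on the other 4 arrays. The median SD over the 6 arrays was 0.17 log2 for Hox genes and 0.12 for probe sets of that range.

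The pattern was not limited to Hox genes. Of the 12 transcription factors of midbrain, hindbrain and spinal cord, 6 were highest on untreated array 2 and 6 lowest on C1q array 2. Of the 35 genes of other organs, 18 were highest on untreated array 2, 14 lowest on untreated array 1 and 9 lowest on C1q array 2. Bright lists ran otherwise, with 9 of 10 pan-neuronal genes, 9 of 11 cortical factors and 5 of 7 Hox cofactors highest on untreated array 1. The part of array quality or background in this pattern was not tested.

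**Figure D5:**
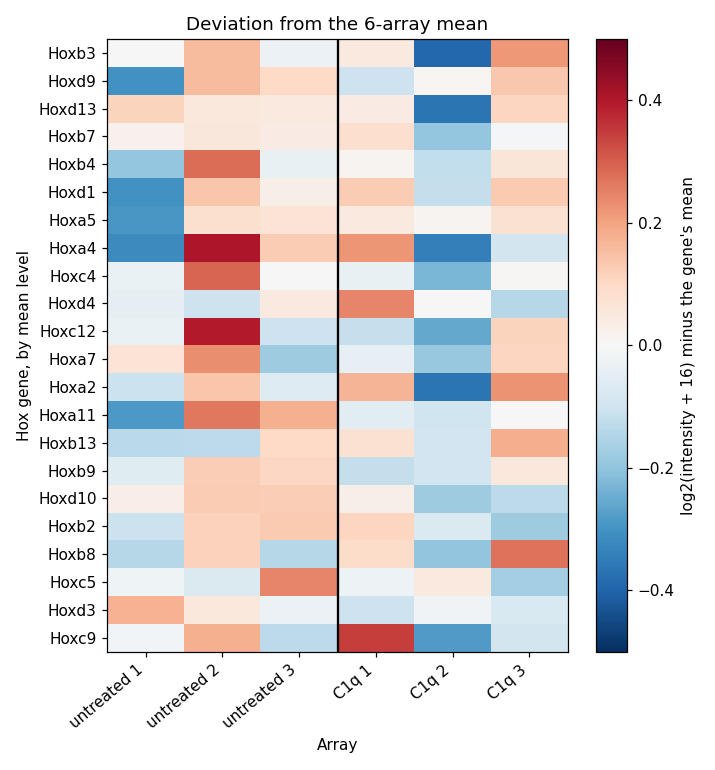
Deviation of each array from the gene's mean over 6 arrays, in log2(intensity + 16), for 22 Hox genes (rows, by mean level) on 3 untreated and 3 C1q arrays (columns), red above and blue below. Untreated array 2 is mostly red and C1q array 2 mostly blue, with medians of 0.13 and -0.15.

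The test called 0 cofactor, regulator or flanking genes. Of 7 cofactors 2 had a higher and 5 a lower mean in treated neurons, of 19 regulators 7 and 12, and of 19 flanking genes 3 and 16, with median log2 fold changes of -0.01, -0.02 and -0.04. Meis2 read 3595 ± 177 untreated and 3525 ± 15.1 after C1q, and Ezh2 2089 ± 28.6 and 2019 ± 19.7 (SD, n = 3 each). The smallest unadjusted p among these 3 lists was 0.0590, that of the Hoxa neighbour Skap2, at 206 ± 9.53 and 177 ± 21.6 (SD, n = 3 each).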

How the data were processed

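Biotin-labelled cRNA was prepared by the Affymetrix protocol, per the labels' protocols. The deposited values are 1 linear intensity per probe set and array, with summarisation and normalization not given in the sources used here. Array medians ran from 147 to 155, and the number of arrays limits the precision. Gene names came from the platform annotation, 15310 probe sets naming 1 gene, 323 several and 13582 none. A gene was represented by its probe set of highest mean. The gene identifiers of all 22 Hox genes and the accessions of 16 matched a RefSeq table of GRCr8. The accessions of Hoxd9, Hoxa5, Hoxa4, Hoxb2, Hoxb8 and Hoxd3 were not found in it. In the same RefSeq table Hoxb3, Hoxa5, Hoxa4, Hoxc4, Hoxd4 and Hoxc5 overlap other genes. Whether their probe sets also read those RNAs was not tested.

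Groups were compared on log2(intensity + 16) in limma 3.58.1 (R 4.3.3; lmFit, then eBayes with trend), over all 29215 probe sets without an intensity filter, with Benjamini-Hochberg adjustment. The procedure was run on simulated data with known changes added, a check of the code whose recovery rates are not reported here. Values per array are given for the 8 brightest and 3 dimmest Hox genes and the 3 per direction of smallest p, and for each list up to 3 of its brightest genes, except that cofactors, regulators and flanking genes may all be named. Nfe2l2, Evx1 and Evx2 were singled out after their values were seen. The members and lists were chosen with earlier results of these data known. Alternatives covered scaling, pseudocount, filter, variance model, array weights, replicate block and leaving out arrays.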

Additional observations from a re-analysis of the deposited data

How the results depend on the processing

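No Hox gene was called by limma under any setting tried, with a smallest adjusted p of 0.317, with array weights. Over all probe sets the counts of higher and lower calls were 0 and 0 for the brightest 60%, which held 10 of the 22 Hox genes, 1 and 10 with array weights, 0 and 2 with the replicate block, and 0 to 3 and 1 to 2 on leaving out each array, with 3 and 2 without untreated array 2. Over all probe sets, deviations of same-numbered arrays from their group means correlated at 0.01, -0.31 and -0.07. No array correlated best with its own number there. Deviations cancel within a group, which ties these correlations to each other, so they cannot settle whether the numbers pair the arrays. The median Hox log2 fold change ran from -0.11 to 0.00766 on leaving out each array and was 0.0758 without untreated array 2 and C1q array 2 together. This pair was chosen after seeing the data, as Hox genes read highest and lowest on it, so its removal had to raise the median and tests nothing. Signs turned for Hoxb13 with array weights (-0.001393), Hoxa5 without untreated array 1 (-0.02864, in a range of -0.02864 to 0.1573 on leaving out each array), Hoxd13 without C1q array 2 (0.001816, in a range of -0.2339 to 0.001816) and Hoxc4 without both arrays 2 (0.001178). The median Hox percentile was 36.7 to 38.4 on leaving out each array, with 5 or 6 genes above the median probe set, and against only the probe sets that name 1 gene it was 30.8, with 3 above. Averaging probe sets per gene changed nothing, as each Hox gene had 1.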
